A study of Mus musculus with 24 samples.

Results

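Transcript levels of 10 genes that carry out excitation-contraction coupling and calcium handling were measured in tibialis anterior muscle, a fast hindlimb muscle, of wild type (WT) and Vps39+/- mice. The genes were listed by symbol for their place in the calcium cycle: the voltage sensor subunit Cacna1s, the release channel Ryr1, the junctional proteins Trdn and Jph1, the calcium pumps Atp2a1 and Atp2a2, the pump regulators Sln and Pln, and the calcium-storage proteins Casq1 and Casq2. All 10 were on the array, each with 1 probe set, among 19572 probe sets with a gene symbol (19505 symbols). The series held 24 Clariom S arrays, 1 per mouse, with 6 females and 6 males of each genotype, which made 4 groups. All mice were on a C57BL/6J background. The Vps39+/- mice, whose titles carry the tag VPS39ko, had a neomycin-EGFP cassette inserted into exon 2 of 1 germ-line copy of Vps39, so the disruption was in every cell type and not only in muscle. Vps39 encodes a subunit of a complex that joins autophagosomes and late endosomes to lysosomes. Mice lacking both copies die as embryos, and only heterozygotes were compared. RNA came from the whole homogenised muscle. The mice were 4 to 5 months old, and ages of single mice were not given. The comparison asked whether loss of 1 copy of Vps39 altered muscle transcript levels, here those of the calcium cycle, and whether it did so in each sex.

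A muscle fibre contracts when an action potential runs into its transverse tubules, where the voltage sensor meets the release channel of the sarcoplasmic reticulum at junctions called triads. The release channel opens, stored calcium floods the myofibrils, and the SERCA pumps return it to the store, where calsequestrin binds it. Fast and slow fibres use partly different parts for this cycle: SERCA1 and calsequestrin 1 predominate in fast fibres, while SERCA2a, phospholamban and calsequestrin 2 belong to slow and cardiac muscle. In whole muscle, fewer fibres of a type and less RNA per fibre cannot be told apart.

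The values are log2 signals. Array medians lay between 5.55 and 5.64, and the brightest probe set of an array between 13.73 and 13.86. Muscle identity was plain on every array, with the mean of 12 fast fibre genes between 12.56 and 12.69. Signal of the Y-linked gene Eif2s3y was 7.71 to 8.45 in the 12 males and 2.26 to 4.04 in the 12 females, so the sexes matched the titles. Vps39 itself was not lower in Vps39+/- muscle: it ran from 6.70 to 8.21, median 7.52, in WT mice and from 6.67 to 8.29, median 7.94, in Vps39+/- mice. The groups overlapped almost wholly, with a difference of 0.34 (95% CI -0.02 to 0.70, limma adjusted p = 0.709). In females alone it was 0.53 (95% CI 0.02 to 1.03, limma adjusted p = 0.588). Nothing in the sources places its probes against the disrupted exon, and this signal does not check the genotype labels. Liver transcripts such as Alb stood out on 4 arrays. The mean of the 24 measured of 26 liver genes reached 11.43 and 10.17 in WT females 2 and 6 and 9.89 and 9.19 in Vps39+/- males 3 and 2, against at most 8.13 in the other 20 mice.

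No gene of the calcium cycle passed the test for a difference between Vps39+/- and WT muscle. With limma and Benjamini-Hochberg adjustment over 19572 probe sets, 0 of the 10 passed an adjusted p of 0.05, as did 0% of all probe sets. At an unadjusted p under 0.05 the count was 0 of 10, beside 7.34% of all probe sets. The t-test named in the methods gave the same 0 of 10 at either threshold. Differences, as Vps39+/- minus WT on the log2 scale, ran from -0.11 for Atp2a2 to 0.19 for Sln and Pln, with 4 genes above and 6 below zero. Their median was -0.00, beside 0.01 over all probe sets.

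**Figure D1:**
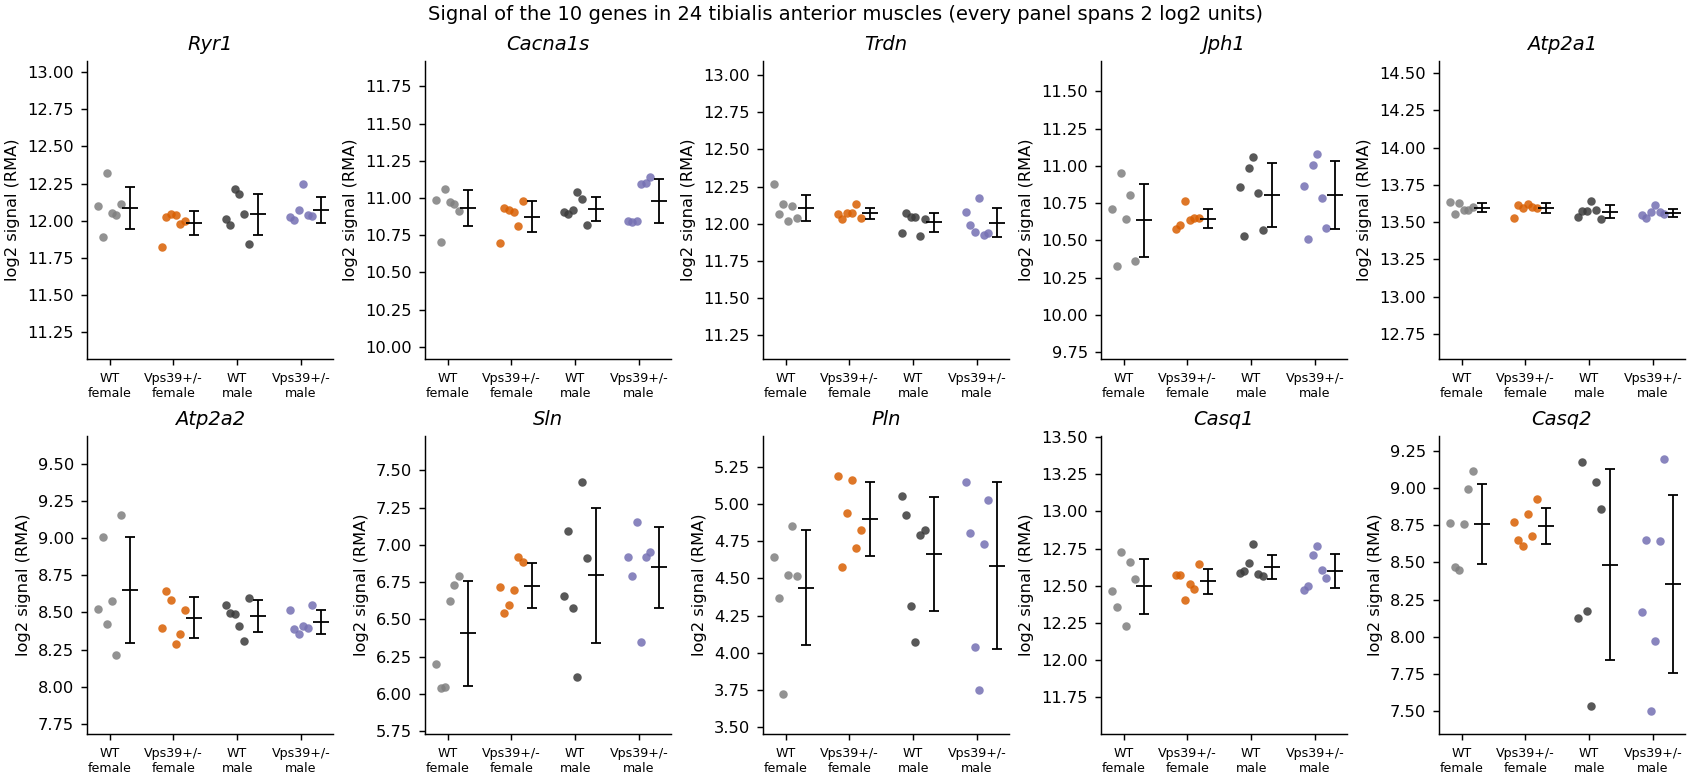
Log2 signal of the 10 genes (y axis, each panel spanning 2 log2 units) in the 4 groups of 6 mice (x axis), with 1 point per mouse and the group mean ± SD in black. Atp2a1 covered 0.12 log2 units over all 24 mice and Casq2 1.69, and in every panel the Vps39+/- points overlapped those of WT mice of the same sex.

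Genes of the voltage sensor and the release unit were held within narrow bounds. Ryr1, the sarcoplasmic reticulum calcium release channel, ranged from 11.84 to 12.32 (median 12.05) in 12 WT mice and from 11.83 to 12.24 (median 12.03) in 12 Vps39+/- mice. These ranges nearly coincided, and the difference was -0.04 (95% CI -0.15 to 0.07, limma adjusted p = 0.926). Cacna1s, the pore-forming subunit of the voltage sensor, lay between 10.71 and 11.06 (median 10.94) in WT and between 10.70 and 11.14 (median 10.91) in Vps39+/- mice, with a difference of -0.00 (95% CI -0.11 to 0.11, limma adjusted p = 0.994). For both genes the interval left room only for small shifts in either direction. Trdn, the triadin that ties calsequestrin to the release channel, spanned 11.92 to 12.27 (median 12.05) in WT and 11.92 to 12.17 (median 12.05) in Vps39+/- mice. The overlap was again near complete, at -0.02 (95% CI -0.11 to 0.07, limma adjusted p = 0.957). Jph1, a junctophilin that bridges the transverse tubule and the sarcoplasmic reticulum, varied more from mouse to mouse. It ran from 10.33 to 11.06 (median 10.76) in WT and from 10.51 to 11.08 (median 10.65) in Vps39+/- mice, and the means differed by 0.01 (95% CI -0.17 to 0.18, limma adjusted p = 0.993).

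Of the pumps, Atp2a1, which encodes the fast fibre pump SERCA1, was the steadiest of the 10 genes. It lay between 13.52 and 13.64 (median 13.58) in WT and between 13.53 and 13.62 (median 13.58) in Vps39+/- mice, a difference of -0.01 (95% CI -0.08 to 0.07, limma adjusted p = 0.988). Its mean was 0.21 below the mean of the array maxima, at the bright end of the scale, and how far that limits its spread was not tested. Atp2a2 encodes SERCA2, including the SERCA2a of slow and cardiac muscle. It ran from 8.22 to 9.15 (median 8.51) in WT and from 8.29 to 8.64 (median 8.40) in Vps39+/- mice. Vps39+/- values all fell inside the WT range, and 10 of 12 were under the WT mean, but the difference of -0.11 (95% CI -0.28 to 0.06) did not pass (limma adjusted p = 0.823). The highest Atp2a2 values, 9.15 and 9.00, were those of WT female 6 and WT female 2, which also had the highest liver gene means. Without the 4 arrays of highest liver gene mean the Atp2a2 difference was 0.0054.

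The small membrane proteins that restrain the pumps had the largest differences, and neither passed. Sln encodes sarcolipin, which uncouples SERCA activity from calcium transport. Its signal ran from 6.04 to 7.42 (median 6.64) in WT and from 6.35 to 7.16 (median 6.84) in Vps39+/- mice. The Vps39+/- range lay inside that of WT, and the difference was 0.19 (95% CI -0.09 to 0.46, limma adjusted p = 0.817). Pln encodes phospholamban, an inhibitor of SERCA2 whose hold is released by phosphorylation. Its signal was dim, under the median of every array, at 3.72 to 5.05 (median 4.58) in WT and 3.75 to 5.19 (median 4.81) in Vps39+/- mice. These ranges overlapped over most of their length, and the difference was 0.19 (95% CI -0.14 to 0.52, limma adjusted p = 0.854).

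The store proteins overlapped between genotypes as well. Casq1, the main calcium-binding protein of the fast fibre store, spanned 12.23 to 12.78 (median 12.58) in WT and 12.41 to 12.77 (median 12.56) in Vps39+/- mice, with a difference of 0.00 (95% CI -0.12 to 0.12, limma adjusted p = 0.998). Casq2, its slow and cardiac counterpart, spanned 7.54 to 9.18 (median 8.76) in WT and 7.5 to 9.19 (median 8.65) in Vps39+/- mice. Its ranges were wide and near identical, and the difference was -0.07 (95% CI -0.45 to 0.30, limma adjusted p = 0.964). For Casq2 the interval therefore admitted much larger shifts than for Casq1 or Atp2a1.

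Within each sex, Pln in females came nearest to a change. Among females the adjusted threshold was passed by 0 of 10 genes and 0% of all probe sets, and the unadjusted one by 1 of 10, Pln, beside 8.32% of all probe sets. Female Pln ran from 3.72 to 4.85 (median 4.52) in WT and from 4.57 to 5.19 (median 4.88) in Vps39+/- mice. The groups overlapped, but 6 of 6 Vps39+/- females lay above the WT mean of 4.44. That mean includes WT female 3 at 3.72, while the other WT females ran from 4.37 to 4.85. WT female 3 also had the lowest slow fibre mean of any female, 7.01. The difference was 0.46 (95% CI 0.00 to 0.92), with a limma adjusted p = 0.600 (0.0483 before adjustment). The methods' t-test likewise placed only Pln of the 10 under its unadjusted threshold in females, and 0 after adjustment. Sln also lay above the WT mean in 6 of 6 Vps39+/- females, from 6.54 to 6.92 (median 6.71) against 6.04 to 6.79 (median 6.41) in WT females. The difference of 0.32 (95% CI -0.05 to 0.69) did not pass (limma adjusted p = 0.632). Atp2a2 stood below the WT mean in 6 of 6 Vps39+/- females, at 8.29 to 8.64 (median 8.46) against 8.22 to 9.15 (median 8.55). That difference of -0.19 (95% CI -0.42 to 0.05, limma adjusted p = 0.676) was 0.029 without the 4 arrays of highest liver gene mean. The female values of Ryr1 differed by -0.10 (95% CI -0.26 to 0.06, limma adjusted p = 0.748), and the other 6 genes by -0.06 to 0.03.

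In males the 10 genes differed by -0.13 to 0.05. None passed the adjusted threshold, which 0% of all probe sets passed, nor the unadjusted one, which 7.00% passed. Male Pln ran from 4.07 to 5.05 (median 4.81) in WT and from 3.75 to 5.15 (median 4.77) in Vps39+/- mice, and male Sln from 6.11 to 7.42 (median 6.78) and from 6.35 to 7.16 (median 6.92). The genotypes overlapped in both genes, with differences of -0.08 (95% CI -0.54 to 0.38) for Pln and 0.05 (95% CI -0.31 to 0.42) for Sln (limma adjusted p = 0.966 and 0.972). Whether the genotype difference itself varied with sex was tested as an interaction, male minus female. It was passed by 0 of 10 genes at the adjusted threshold (0% of all probe sets) and by 0 of 10 at the unadjusted one (7.79%). The largest interaction was that of Pln, -0.54 (95% CI -1.19 to 0.11, limma adjusted p = 0.685), so a difference between the sexes in the Pln response was not shown.

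**Figure D2:**
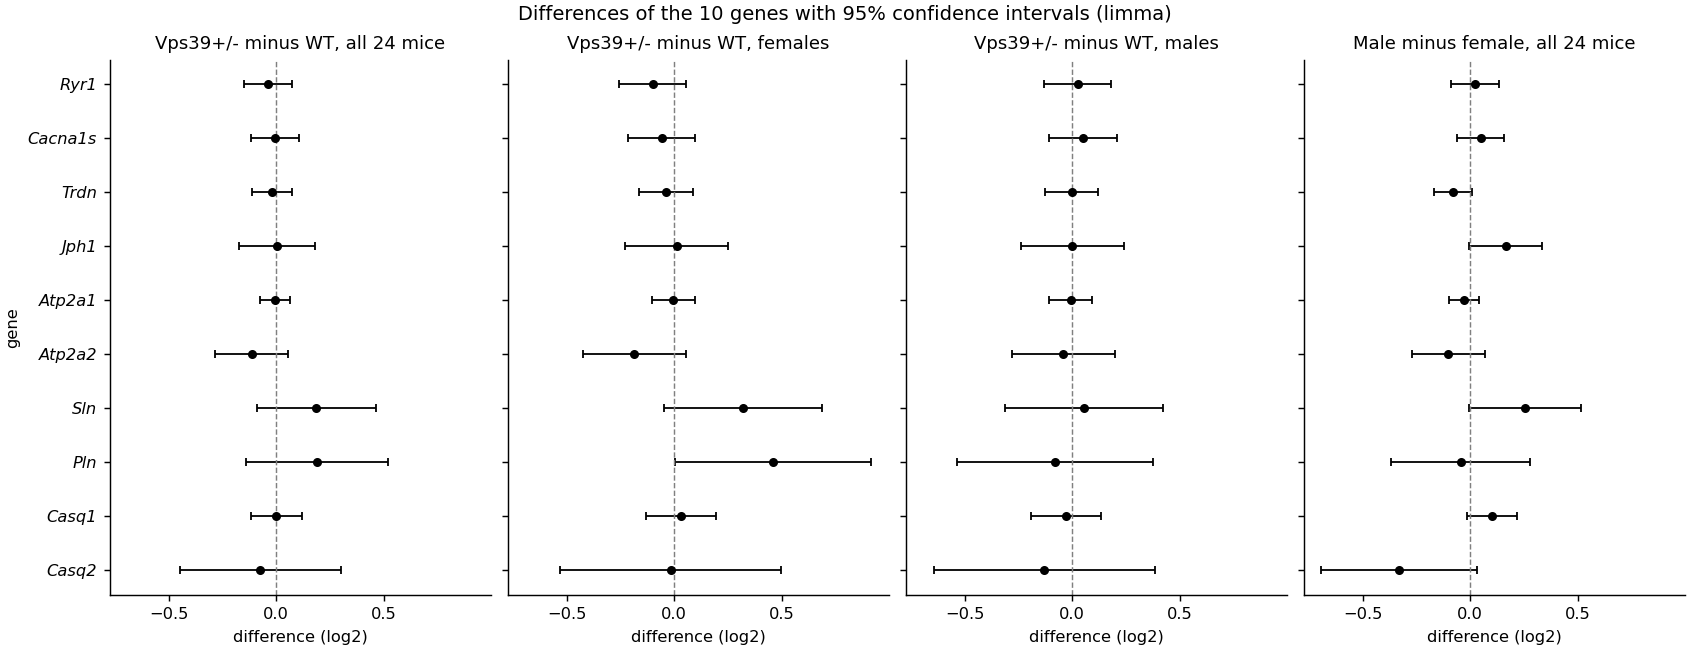
Differences on the log2 scale (x axis) for the 10 genes (y axis) as points with 95% confidence intervals, for Vps39+/- minus WT in all mice, in females and in males, and for males minus females. Intervals were narrowest for Atp2a1 and widest for Casq2, and the interval of Pln in females, 0.00 to 0.92, was the only genotype interval that did not cross zero.

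Partner genes of the same machinery were tested as lists. Of them, 0 of 6 voltage sensor partners, 0 of 20 release channel and triad genes, 0 of 15 store-operated entry and surface transport genes, 0 of 4 mitochondrial uptake genes, 0 of 16 calcium-binding and signalling genes and 0 of 12 membrane excitation genes passed for genotype (limma, adjusted). The sarco/endoplasmic pump Atp2a3, the only gene measured of the list of further pump and micropeptide genes, differed by 0.10 (adjusted p = 0.786). Median differences of the larger lists were 0.03 for release channel and triad genes, 0.04 for entry and surface transport, 0.00 for calcium-binding and signalling and -0.03 for membrane excitation. The genes of smallest p in the excitation list were Chrnd, the acetylcholine receptor delta subunit, at 0.34 (adjusted p = 0.650) and Kcnj12 at 0.15 (0.719). In the triad list they were Sypl2, a triad membrane protein, at 0.14 with 12 of 12 Vps39+/- mice above the WT mean (0.667) and S100a1 at 0.10 (0.828). The sodium-calcium exchanger Slc8a2 had 0.26 (adjusted p = 0.667) and the store sensor Stim1 0.09 (0.786). Of the voltage sensor partners, Stac2 had 0.17 (0.819) and Stac3 0.06 (0.847). Calcineurin subunit Ppp3cb had -0.10 and its target Nfatc4 0.14 (both 0.751), and Micu2 and Mcu of the mitochondrial uniporter each 0.04 (0.939 and 0.944). By unadjusted limma p, 1 gene each passed among triad, entry and excitation genes (Sypl2, Slc8a2 and Chrnd), beside 7.34% of all probe sets. Slow fibre genes (0 of 10, median -0.03) and fast fibre genes (0 of 12, median -0.00) did not pass for genotype, with Myl2 at -0.67 (adjusted p = 0.815), Tnnt1 at 0.12 (0.910), Myoz3 at 0.08 (0.867) and Tnnt3 at 0.03 (0.887).

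More probe sets differed by sex than by genotype, but none of the 10 genes was among them. Between males and females, 3.38% of all probe sets passed the adjusted threshold, 1.98% higher and 1.39% lower in males, and 0 of the 10 genes did. At the unadjusted threshold the count was 0 of 10 beside 15.6% of all probe sets. Casq2 had the largest difference. It ran from 8.45 to 9.11 (median 8.76) in 12 females and from 7.5 to 9.19 (median 8.41) in 12 males. Males reached as high as females but also far lower, and the difference was -0.33 (95% CI -0.69 to 0.03, limma adjusted p = 0.373). Sln was 6.04 to 6.92 (median 6.66) in females and 6.11 to 7.42 (median 6.91) in males, at 0.26 (95% CI -0.00 to 0.52, limma adjusted p = 0.331). Jph1 was 10.33 to 10.95 (median 10.65) in females and 10.51 to 11.08 (median 10.84) in males, at 0.17 (95% CI -0.00 to 0.33, limma adjusted p = 0.335). The sexes overlapped for both genes. Trdn lay below the female mean in 11 of 12 males, at -0.08 (limma adjusted p = 0.377), and Casq1 above it in 10 of 12, at 0.10 (0.411). The differences of Atp2a2, Pln, Atp2a1, Ryr1 and Cacna1s were -0.10, -0.04, -0.03, 0.02 and 0.05 (adjusted p from 0.596 to 0.930), and that of Atp2a2 was 0.021 without the 4 arrays of highest liver gene mean.

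Among the partners, 4 genes passed for sex at the adjusted threshold, which 3.38% of all probe sets passed. Calm3, 1 of the genes for calmodulin, which binds the release channel, was 0.37 higher in males (adjusted p = 0.00111). Bin1, the amphiphysin that shapes transverse tubules, was 0.23 higher (0.0257), and these were 2 of the 20 release channel and triad genes. Camk2b, a calmodulin-dependent kinase subunit, was 0.37 higher (0.00957), as 1 of 16 calcium-binding and signalling genes. Kcnj11, the pore of the ATP-sensitive potassium channel, was lower in males by -0.53 (0.00215), as 1 of 12 excitation genes. For each of the 4, all 12 males lay on the same side of the female mean. None of the voltage sensor, entry, mitochondrial or fast fibre genes passed for sex. The nearest were Cacng6 (0.20, adjusted p = 0.135), Cacng1 (0.25, 0.298), Stim2 (0.26, 0.132), Slc8a3 (0.16, 0.262), Mcu (-0.10, 0.544), Micu3 (0.09, 0.554), Myh2 (-0.48, 0.138) and Myoz3 (0.17, 0.139), and Atp2a3 had -0.02 (0.925). Of 10 slow fibre genes, 2 were lower in males, the myosin light chains Myl2 at -1.78 (limma adjusted p = 0.00211) and Myl3 at -0.72 (0.00446), and the list median was -0.44. Slow fibre list means ran from 7.01 to 8.50 in females and from 6.45 to 7.95 in males.

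The 10 genes differed most in how much they varied between mice of the same group. The residual SD, after each group's mean was subtracted, was 0.034 for Atp2a1, 0.076 for Trdn, 0.115 for both Ryr1 and Cacna1s and 0.124 for Casq1, all under the 0.185 that was the median of genes with a mean signal of at least 5. For Jph1 and Atp2a2 it was 0.202. The pump regulators and Casq2 spread far more, with 0.326 for Sln, 0.409 for Pln and 0.462 for Casq2. The mice of lowest Pln came from both genotypes. Pln was lowest at 3.72 and 4.07 in WT female 3 and WT male 4, and at 3.75 and 4.04 in Vps39+/- males 4 and 3. Casq2 in these mice, in the same order, was 8.45, 7.54, 7.97 and 7.5, the last 3 being its lowest values. Low Casq2 also occurred with high Pln, as in WT male 1 (8.13 and 5.05) and Vps39+/- male 1 (8.17 and 5.15).

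Correlations across the 24 mice were computed after subtracting group means. Of 45 pairs, 13 passed a two-sided permutation test on Pearson's r with Benjamini-Hochberg adjustment over the pairs, 8 positive and 5 negative. The share of other gene pairs that would pass was not computed, so the count has no background beside it. Ryr1, Cacna1s and Atp2a1 correlated positively with one another, and Jph1 with Ryr1. Ryr1 followed Atp2a1 (r = 0.81, Spearman's rho = 0.83, permutation p = 4e-05 and 2e-05, adjusted 0.0018 and 0.0009), Jph1 (r = 0.73, rho = 0.66, p = 0.00018 and 0.00154, adjusted 0.0027 and 0.0139) and Cacna1s (r = 0.65, rho = 0.63, p = 0.00039 and 0.00077, adjusted 0.00439 and 0.0114), and Cacna1s followed Atp2a1 (r = 0.68, rho = 0.66, p = 0.00015 and 0.00047, adjusted 0.0027 and 0.0106). Without the 2 mice farthest from the median of the first-named gene these 4 values of r were 0.79, 0.70, 0.56 and 0.70. Atp2a1 spanned only 0.12 log2 units, 0.21 below the array maxima, so its correlations rest on small shifts. Whether the brightness of whole arrays contributed to them was not tested. Cacna1s with Jph1 did not pass (r = 0.44, adjusted 0.132), nor did any of the 9 pairs of Trdn (r from -0.45 to 0.40, permutation adjusted p from 0.117 to 0.892). Pln ran against Ryr1 (r = -0.66, rho = -0.65, permutation p = 0.00116 and 0.00101, adjusted 0.0104 and 0.0114), with r = -0.55 without the 2 farthest mice. These 5 pairs passed with any single mouse left out, and within females and within males each r kept its sign (females 0.84, 0.65, 0.84, 0.77 and -0.57, males 0.79, 0.80, 0.48, 0.61 and -0.74, in the order given).

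The other 8 pairs that passed did not do so without WT male 4, which had low Pln and Casq2 and high Jph1. Casq2 went with Pln (r = 0.64, rho = 0.58, permutation adjusted p = 0.029 and 0.0572) and Sln (r = 0.61, rho = 0.63, adjusted 0.0324 and 0.0312) and against Jph1 (r = -0.66, rho = -0.67, adjusted 0.0181 and 0.0189). Without WT male 4 these were 0.57 (adjusted p = 0.11), 0.48 (0.149) and -0.62 (0.0712). Pln also went against Atp2a1 (r = -0.59, rho = -0.55, permutation adjusted p = 0.0181 and 0.0486) and Casq1 (r = -0.56, rho = -0.41, adjusted 0.0324 and 0.163), and Jph1 against Atp2a2 (r = -0.57, rho = -0.48, adjusted 0.0425 and 0.1). Jph1 with Atp2a1 (r = 0.56, rho = 0.48, adjusted 0.0324 and 0.111) and Ryr1 with Casq1 (r = 0.54, rho = 0.53, adjusted 0.0463 and 0.0572) completed the set. In this set, 5 pairs did not pass on Spearman's rho. Pln with Casq2 was also lost without WT female 3 (r = 0.64, adjusted 0.0646) and Atp2a1 with Pln without Vps39+/- male 4 (r = -0.51, adjusted 0.0666). The pairs of Casq2 with Sln, Pln with Casq1, Jph1 with Atp2a2, Jph1 with Atp2a1 and Ryr1 with Casq1 each stopped passing when any 1 of a set of 5 to 14 mice was left out. Before adjustment, the permutation p on r in these 8 pairs ran from 0.00264 to 0.0134.

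**Figure D3:**
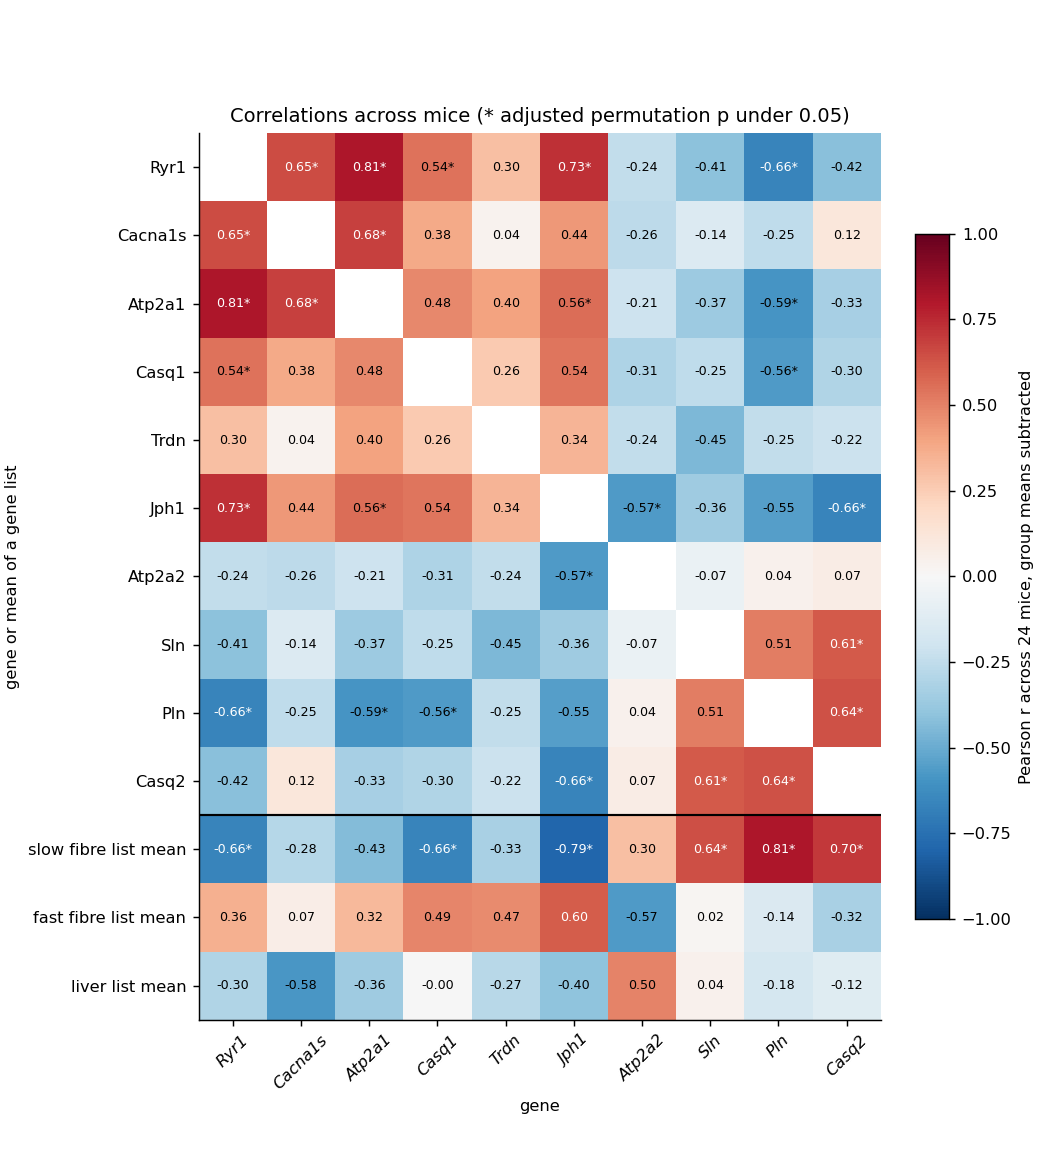
Pearson's r across 24 mice with group means subtracted (colour and printed value), for each pair of the 10 genes and, under the line, for each gene against the mean of the slow fibre, fast fibre and liver lists. Asterisks mark adjusted permutation p under 0.05, and the red block of Ryr1, Cacna1s and Atp2a1 (r from 0.65 to 0.81) stands beside the blue of Ryr1 with Pln (-0.66).

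Shown are the windows upstream of the transcript start of Ryr1 and Atp2a1, the pair of highest r. Those of Pln and Casq2, which went with slow fibre genes, are shown as well. RefSeq (GRCm38.p6) gave a window for 6 of the 10 genes. Each is the 250 bases before the start, 5′ to 3′ on the gene's strand, with matches to the E-box letters CANNTG, the motif of MyoD family factors, in capitals. The motif reads the same on both strands. The annotated spans of Ryr1 and Atp2a1 end at 29125179 and 126463103, inside their windows. These windows thus lie before a transcript start within the annotated gene and are not wholly upstream of it.
Ryr1 (chr7:29125152-29125401, minus strand): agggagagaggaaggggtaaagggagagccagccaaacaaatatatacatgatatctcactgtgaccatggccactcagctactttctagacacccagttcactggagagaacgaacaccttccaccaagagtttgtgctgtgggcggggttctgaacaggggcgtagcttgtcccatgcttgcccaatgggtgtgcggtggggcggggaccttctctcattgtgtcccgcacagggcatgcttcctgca
Atp2a1 (chr7:126463074-126463323, minus strand): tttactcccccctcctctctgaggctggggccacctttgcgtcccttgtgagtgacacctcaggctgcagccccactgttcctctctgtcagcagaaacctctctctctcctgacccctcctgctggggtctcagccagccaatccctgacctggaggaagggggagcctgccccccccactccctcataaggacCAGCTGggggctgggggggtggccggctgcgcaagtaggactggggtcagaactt
Pln (chr10:53337436-53337685, plus strand): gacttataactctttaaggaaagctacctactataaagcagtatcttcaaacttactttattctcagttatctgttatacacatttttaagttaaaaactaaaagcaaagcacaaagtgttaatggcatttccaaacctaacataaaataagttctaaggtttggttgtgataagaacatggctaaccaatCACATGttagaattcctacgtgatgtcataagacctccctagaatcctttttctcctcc
Casq2 (chr3:102086165-102086414, plus strand): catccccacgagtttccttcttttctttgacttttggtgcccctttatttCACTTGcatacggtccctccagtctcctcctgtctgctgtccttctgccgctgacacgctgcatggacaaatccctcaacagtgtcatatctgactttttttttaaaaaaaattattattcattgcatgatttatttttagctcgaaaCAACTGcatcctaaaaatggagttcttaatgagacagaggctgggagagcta
The Atp2a1 and Pln windows held 1 match each, Casq2 held 2 and Ryr1 0. Casq1 and Cacna1s, not printed, held 2 each. Since 66.2% of 32851 such windows held at least 1, these matches describe the letters only.

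Variation in 6 of the 10 genes followed the slow fibre genes. The share of all genes that did so was not computed, so the count has no background beside it. Against the mean of 10 slow fibre genes, which holds none of the 10, Pln had r = 0.81 (rho = 0.65, permutation p = 0.00039 and 0.00314, adjusted over the 10 genes 0.00195 and 0.0105) and Casq2 r = 0.70 (rho = 0.73, adjusted 0.003 and 0.0096). Sln followed with r = 0.64 (rho = 0.52, adjusted 0.00443 and 0.0378). Running the other way were Jph1 (r = -0.79, rho = -0.66, adjusted 0.001 and 0.0105), Ryr1 (r = -0.66, rho = -0.49, adjusted 0.00443 and 0.0399) and Casq1 (r = -0.66, rho = -0.58, adjusted 0.00325 and 0.0157). Before adjustment, the permutation p on r of the 6 genes ran from 0.0001 to 0.00266. With group means subtracted, Pln, Casq2 and Sln were high where slow fibre genes were high, and Jph1, Ryr1 and Casq1 were low there. Without that subtraction r was 0.63 for Pln, 0.75 for Casq2 and 0.21 for Sln. It was -0.82 for Jph1, -0.56 for Ryr1 and -0.71 for Casq1. With group means subtracted, Atp2a2 had r = 0.30 (permutation adjusted p = 0.262), Atp2a1 -0.43 (0.0613), Trdn -0.33 (0.249) and Cacna1s -0.28 (0.262). Without the 2 mice of most extreme slow fibre mean, r was 0.71 for Pln, 0.64 for Casq2, 0.46 for Sln, -0.73 for Jph1, -0.54 for Ryr1 and -0.55 for Casq1. All 6 passed with any single mouse left out.

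Values of r were further from zero in males, though this gap was not tested. Within 12 males r was 0.90 for Pln, 0.79 for Casq2, 0.72 for Sln, -0.86 for Jph1, -0.79 for Ryr1 and -0.88 for Casq1, and within 12 females 0.65, 0.58, 0.51, -0.70, -0.51 and -0.52, where 0 of 10 passed the permutation test. The leading number of the sample titles, whose meaning is not given, divides the mice as well. With it fitted as a block, r was 0.76 for Pln, 0.77 for Casq2, 0.71 for Sln, -0.73 for Jph1, -0.58 for Ryr1 and -0.77 for Casq1. Within the 9 mice that share number 1, the only number with over 5 mice, r was 0.98 for Casq2, 0.80 for Sln and -0.45 for Jph1 but -0.17 for Pln, 0.041 for Ryr1 and 0.19 for Casq1, so the last 3 relations did not hold there. Those 9 mice include none of the 5 with the lowest slow fibre means (6.45 to 7.03). Mean slow fibre signal in WT and Vps39+/- mice was 8.00 and 7.99 in females and 7.47 and 7.32 in males. Against the fast fibre mean (r from -0.57 to 0.60) and the liver mean (r from -0.58 to 0.50), 0 of 10 genes passed. The fast fibre mean ran only from 12.56 to 12.69, which left it little range to vary with. Its result therefore does not show that the relation was particular to slow fibre genes.

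**Figure D4:**
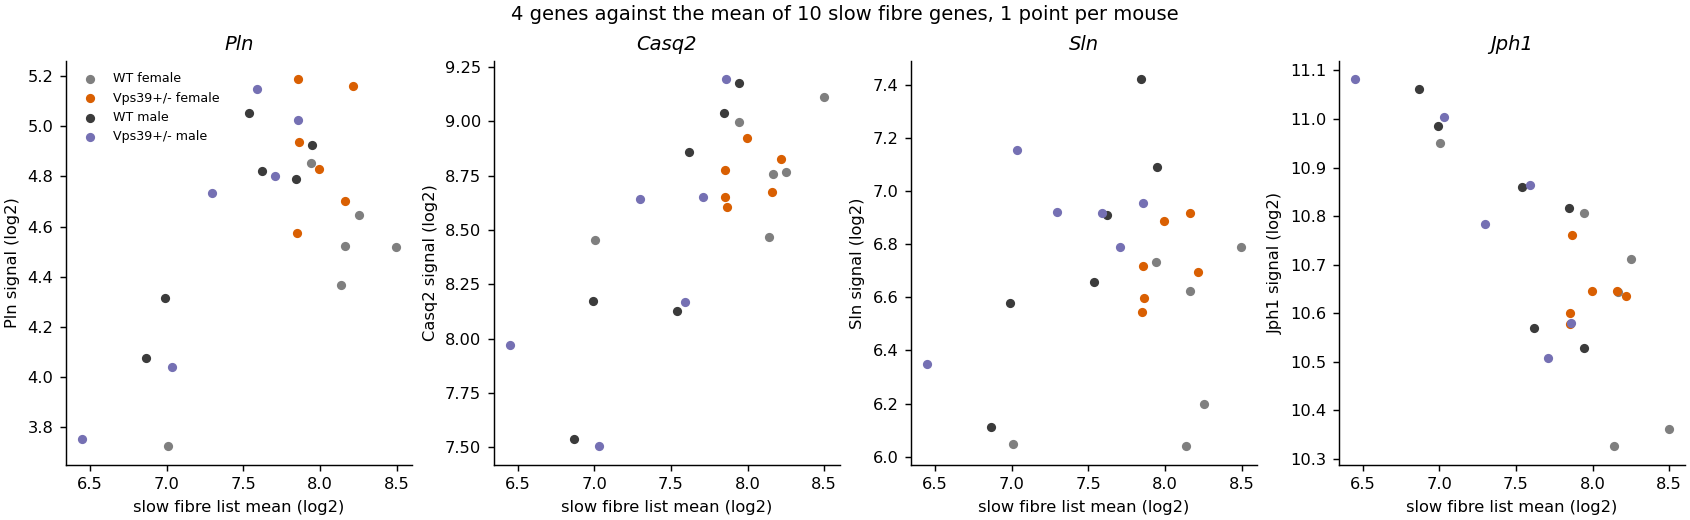
Log2 signal of Pln, Casq2, Sln and Jph1 (y axes) against the mean log2 signal of 10 slow fibre genes (x axis), 1 point per mouse, coloured by group and without subtraction of group means. Mice with slow fibre means near 6.45 to 7.03 have the lowest Pln and, at 10.95 to 11.08, the highest Jph1.

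Markers of other cell types moved with some of these genes. Of 80 tests against the mean of 8 further marker lists, 6 passed on r (permutation adjusted p = 0.0296 for each) and 1 on rho. The share of all genes that would pass was not computed, so the count has no background beside it. Single mice were not left out in turn for these lists. Pln rose with smooth muscle (r = 0.70) and endothelial genes (r = 0.67). The smooth muscle list mean lay between 8.28 and 8.89 over all mice and the endothelial mean between 7.28 and 7.85. Des (11.77 to 12.20) and Synpo2 (10.80 to 11.21) were the brightest genes of the smooth muscle list. How much of that list mean came from muscle fibres was not tested. Casq1 ran against endothelial genes (r = -0.71). Casq2 rose with Schwann cell and nerve genes (r = 0.71, within females 0.089) and Jph1 ran against them (r = -0.73, rho adjusted p = 0.0424), over list means from 5.29 to 6.03. Atp2a2 rose with adipocyte genes (r = 0.67), whose mean spanned 5.58 to 8.09 in WT and 6.00 to 6.4 in Vps39+/- females. In males it spanned 5.60 to 7.35 and 5.74 to 8.16, respectively. Without the 4 arrays of highest liver gene mean that r was 0.30. Within title number 1, r for Pln was 0.59 with smooth muscle and 0.26 with endothelial genes. There it was 0.023 for Casq1 with endothelial genes and 0.76 for Atp2a2 with adipocyte genes. With Schwann cell and nerve genes it was -0.085 for Casq2 and -0.71 for Jph1. No cardiac muscle, macrophage, satellite cell or erythrocyte list passed with any of the 10 genes. The part these cells play in the values was not tested.

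Patterns over the 24 mice, with group means subtracted, were compared with those of 11741 genes with a mean signal of at least 5. The genes most like each member named here were as follows. For Pln they were Slc25a3, the mitochondrial phosphate carrier (r = 0.85), the complex I subunit Ndufb10 (0.84) and Atp1b1, a sodium pump subunit (0.83). For Casq2 they were Dach2, Btbd1 and Atp5pb, an ATP synthase subunit (each 0.89). Sln was most like Chrne, the adult acetylcholine receptor subunit, Tm4sf1 and Galt (each 0.79). Jph1 was most like Hivep2 (0.92), Syngr2 (0.91) and Cap2 (0.91), and Ryr1 like Ndrg2 (0.87), Myoz1, a fast fibre Z-disc protein (0.83), and Kpna6 (0.82). Casq1 was most like Nacc1 (0.91), Lrrc38 (0.89) and Hjv (0.88), and Atp2a2 like Paqr9 (0.79), Acp5 (0.77) and Dbi (0.76). Each is the top of a search over many genes and is a description of these arrays.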

How the data were processed

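Tibialis anterior RNA from 24 mice was hybridised to 1 Clariom S array each. The deposited log2 values were made by the authors with Robust Multi-array Average in Affymetrix Expression Console 1.4.1.46. Of 28846 probe sets, 6640 controls and 2634 without a symbol were left out, and 19572 were tested; all matched RefSeq genes by Entrez ID. Genotype was tested over 24 mice with limma 3.58.1 (R 4.3.3) without covariates; effects within each sex, their interaction and sex came from 4 group means with shared spread. P-values were adjusted by Benjamini-Hochberg. Correlations used values with group means subtracted and 100000 permutations within groups (numpy 2.4.6, scipy 1.17.1). The limma fits were tried on simulated data with known changes, and the correlation tests were not. Arrays give no read depth, so the number of mice limits the precision, and values of different probe sets are not compared as levels. Groups came from the sample titles, in which running numbers follow group; what they number is not stated. Per the methods, arrays were assigned to samples at random. The genes and lists were chosen with earlier results of these data known. Named were all 10 genes and, from each list, those passing for genotype and sex (at most 4, otherwise the 2 of smallest p). Also named were the 3 genes most like a member described for its variation between mice. Where a list passed with 1 gene, only that gene was named. Alternatives covered scaling, filters, weights, covariates, blocks, the methods' t-test and single mice. Of the correlation checks, those by title number, the slow fibre values within each sex and the omission of single mice were added after the data were seen, as were the other marker lists.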

Additional observations from a re-analysis of the deposited data

Results flagged for a closer look

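In groups of 6 mice, 4 of 40 gene and group sets had a mouse standing apart by Dixon's criterion, of which chance flags about 1 in 20. Ryr1 in Vps39+/- female 1 was 11.83, with the other 5 Vps39+/- females at 11.98 to 12.05. Atp2a1 in the same mouse was 13.53, against 13.60 for its nearest neighbour. Ryr1 in Vps39+/- male 4 was 12.24, against 12.07 for the next male, and this mouse also had the lowest slow fibre mean. Jph1 in Vps39+/- female 3 was 10.76, against 10.65 for the next.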

How the results depend on the processing

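None of the 10 genes passed for genotype, within a sex, for interaction or for sex under any alternative, leave-one-out included. Over all probe sets, 1 passed for genotype with array weights and, with title number as a fixed replicate block, 4 for genotype and 2 in females, against 0 of each; leaving out 1 mouse gave 0 to 3 for genotype (3 without WT female 3, 1 without WT female 4 or Vps39+/- female 2) and 0 to 1 in males (1 without WT male 1, 4 or 5 or Vps39+/- male 2). For sex, 97 passed in WT mice alone and 117 in Vps39+/- mice alone, against 661, and 58.7% of calls were higher in males, 66.2% with arrays shifted to 1 median and 52.1% after cyclic loess. Of the 45 pairs, 3 passed within females and 7 within males, and 5 to 17 with 1 mouse left out (7 without WT female 3, 5 without WT male 4, 8 without Vps39+/- male 4). Against the slow fibre mean 0 of 10 passed within females. Within title number 1, r turned for Pln with Casq1 (0.044) and Casq2 (-0.16), for Ryr1 with Casq1 (-0.076) and for the slow fibre mean with Casq1 (0.19), Pln (-0.17) and Ryr1 (0.041). Title numbers are shared by 2 to 9 mice and have no stated meaning; they did not name pairs. Small uncalled differences of the 10 genes changed sign under some settings, and the cause was not tested. In WT mice alone these were, for sex, Ryr1 -0.041, Cacna1s -0.0054, Pln 0.23. With array weights these were, for genotype, Jph1 -0.019, Casq1 -0.013, and for genotype in females, Jph1 -0.0087, and for interaction, Jph1 0.0014. After cyclic loess these were, for genotype, Cacna1s 0.0053, and for genotype in males, Trdn 0.019, Jph1 0.028, Atp2a1 0.0041, and for interaction, Jph1 0.026, Atp2a1 0.025, and for sex, Ryr1 -0.015. With arrays shifted to 1 median these were, for genotype, Jph1 -0.011, Casq1 -0.014, and for genotype in males, Ryr1 -0.0043. With the liver mean as a covariate these were, for genotype in females, Jph1 -0.042, and for genotype in males, Trdn 0.011, Jph1 0.051, Atp2a1 0.0011, and for interaction, Jph1 0.093, Atp2a1 0.014. With title number as a fixed block these were, for genotype, Cacna1s 0.021, Casq1 -0.014, and for genotype in females, Cacna1s 0.047, Jph1 -0.0087, Casq2 0.36, and for genotype in males, Trdn 0.037, Jph1 0.062, Atp2a1 0.0016, Sln -0.048, and for interaction, Cacna1s -0.035, Jph1 0.071, Atp2a1 0.016. Without the 4 arrays of highest liver mean these were, for genotype, Jph1 -0.076, Atp2a2 0.0054, Casq1 -0.027, Casq2 0.056, and for genotype in females, Jph1 -0.13, Atp2a2 0.029, Casq2 0.00041, and for genotype in males, Trdn 0.018, Jph1 0.023, Atp2a1 0.00099, Sln -0.0086, Pln 0.0017, Casq2 0.0092, and for interaction, Jph1 0.16, Atp2a1 0.014, Atp2a2 -0.038, Casq2 0.0088, and for sex, Atp2a2 0.021. Depth does not apply; Pln was dim and Atp2a1 near the brightest signal, which limits both.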
